A study of Mus musculus with 10 samples.

Results

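Tnf, its receptors and the feedback genes of NF-kappaB were followed across 5 sorted cell populations of the mouse mammary gland. The set holds 10 genes of the 49671 gene identifiers in the count tables, and they were found by matching Ensembl identifiers to gene symbols in GENCODE M21 (GRCm38). It is made up of the ligand gene Tnf, the receptor genes Tnfrsf1a and Tnfrsf1b, the feedback inhibitors Nfkbia and Tnfaip3, the NF-kappaB subunit genes Nfkb1, Nfkb2 and Relb, the TNF-induced gene Tnfaip2 and the cytokine gene Il6. All 10 passed the filter on low counts, which left 19757 genes for testing.

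The populations Tomato hybrid cells (THC), Tomato luminal cells (TLC) and Tomato basal cells (TBC) carry the treatment label luminal cell ablation, and luminal cells (LC) and basal cells (BC) carry no treatment label. Each population has 2 libraries, and the second library of LC and of BC is labelled WT. Tomato is a red fluorescent protein used to mark cells and their descendants. The sources used here name neither the mouse line nor the promoter that drove the marking or the ablation, and they leave out the agent, the age of the mice and the number of animals per library. Every comparison of a Tomato population with LC or BC therefore contrasts ablation and marking at once. The labels do not say whether separate animals gave the libraries of a population, and p-values measure only the spread between these libraries. The study asks how luminal and basal cells communicate and how that bears on the multipotency of mammary stem cells.

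TNF is a cytokine that is made as a membrane protein and shed from the cell surface. It binds the receptor encoded by Tnfrsf1a, which is found on most cell types, and the receptor encoded by Tnfrsf1b, which is more restricted. Receptor binding frees NF-kappaB dimers to enter the nucleus, where they switch on genes that include their own inhibitors, and this negative feedback limits the response. In mammary gland NF-kappaB is best known for its part in lobuloalveolar growth and involution.

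NF-kappaB dimers bind DNA at kappaB motifs of 10 bases. RefSeq promoter windows on GRCm38.p6, which run from 250 bases before to 50 bases after an annotated start, were at hand for 8 of the 10 genes, in 11 windows, with none for Nfkb1 and Relb. On either strand the kappaB consensus was matched in windows of 4 of these 8 genes, namely Nfkbia, Tnfaip3, Nfkb2 and Il6, against 5.14% of the 27025 genes with a window of the same length. The looser motif GGGNNNNNCC, of which the consensus is a special case, was matched in all 8 genes and in 53.5% of all genes. Windows are printed 5′ to 3′ on the gene's strand, with matches to the consensus in capitals. The first 4 are those with a match, taken at the first annotated start, and the window of Tnf is shown beside them because the ligand gene had no match there.
Nfkbia, chr12:55492598-55492897, minus strand: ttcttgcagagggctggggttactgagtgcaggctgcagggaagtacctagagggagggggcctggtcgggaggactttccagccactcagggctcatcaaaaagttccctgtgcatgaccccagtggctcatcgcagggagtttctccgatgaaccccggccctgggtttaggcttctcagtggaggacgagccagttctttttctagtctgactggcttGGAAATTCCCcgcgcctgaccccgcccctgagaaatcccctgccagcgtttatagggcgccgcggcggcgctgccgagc
Tnfaip3, chr10:19015361-19015660, minus strand: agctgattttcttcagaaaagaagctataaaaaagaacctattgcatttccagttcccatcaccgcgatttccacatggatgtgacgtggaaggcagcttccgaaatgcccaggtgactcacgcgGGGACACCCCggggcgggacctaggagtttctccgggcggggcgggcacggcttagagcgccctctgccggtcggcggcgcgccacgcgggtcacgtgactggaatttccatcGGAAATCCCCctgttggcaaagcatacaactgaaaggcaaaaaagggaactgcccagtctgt
Nfkb2, chr19:46304487-46304786, plus strand: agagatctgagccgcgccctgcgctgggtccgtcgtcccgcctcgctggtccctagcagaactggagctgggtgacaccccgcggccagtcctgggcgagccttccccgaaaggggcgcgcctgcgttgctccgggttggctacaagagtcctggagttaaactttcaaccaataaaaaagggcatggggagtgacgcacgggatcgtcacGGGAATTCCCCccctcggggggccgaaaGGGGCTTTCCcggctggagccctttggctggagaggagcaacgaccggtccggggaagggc
Il6, chr5:30012864-30013163, plus strand: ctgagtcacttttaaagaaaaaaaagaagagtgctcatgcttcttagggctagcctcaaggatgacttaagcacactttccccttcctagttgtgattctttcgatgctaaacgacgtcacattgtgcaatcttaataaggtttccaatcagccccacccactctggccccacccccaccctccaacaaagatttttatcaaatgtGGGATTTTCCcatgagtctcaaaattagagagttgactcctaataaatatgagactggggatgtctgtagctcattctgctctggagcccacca
Tnf, chr17:35201958-35202257, minus strand: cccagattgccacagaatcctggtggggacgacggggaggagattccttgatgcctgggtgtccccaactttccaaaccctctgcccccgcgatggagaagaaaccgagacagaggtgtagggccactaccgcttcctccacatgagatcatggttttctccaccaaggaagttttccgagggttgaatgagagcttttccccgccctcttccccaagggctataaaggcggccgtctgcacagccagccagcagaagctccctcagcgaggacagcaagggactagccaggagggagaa

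In Nfkbia the match lay 29 to 20 bases before the start, and in Il6 it lay 44 to 35 bases before the start. Tnfaip3 had a match 125 to 116 bases before its first annotated start and a second one 12 to 3 bases before it, and its other annotated start had none. The first Nfkb2 window held overlapping matches on both strands between 39 and 29 bases before the start and another 11 to 2 bases before it. The second Nfkb2 window held 2 matches, and 1 of them lay in the stretch it shares with the third. No match was found in the windows of Tnf, Tnfrsf1a, Tnfrsf1b and Tnfaip2. A match is a description of the sequence, and binding was not measured.

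**Figure D1:**
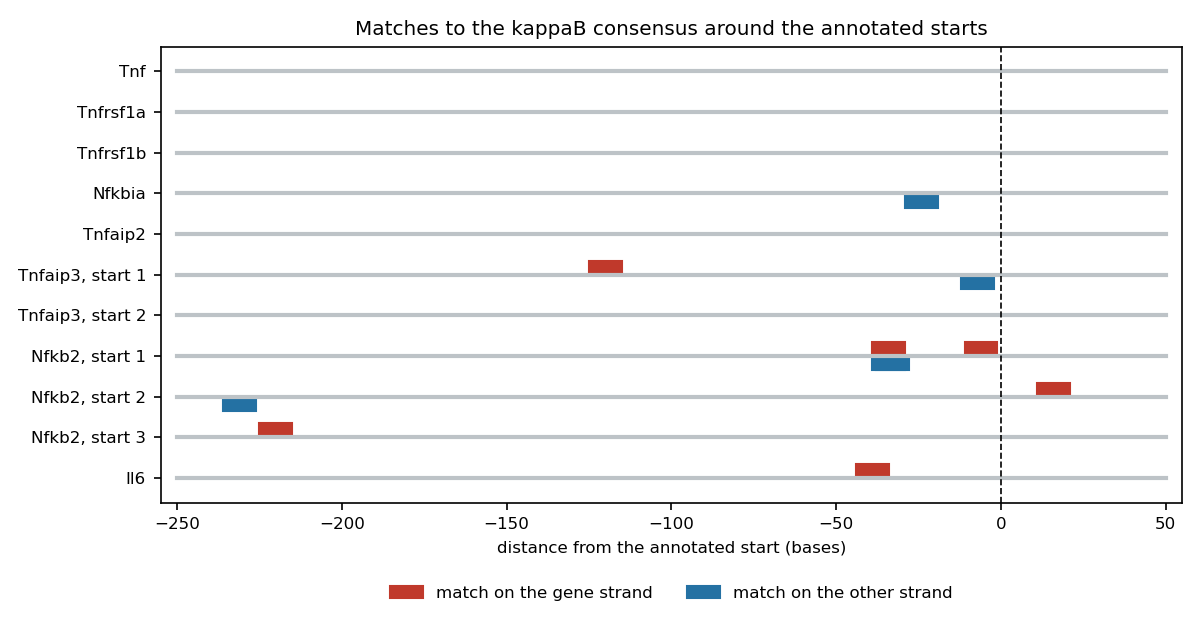
Matches to the kappaB consensus in 11 promoter windows of 8 genes, drawn at scale. The x axis is the distance in bases from the annotated start (dashed line), red boxes are matches on the gene's strand and blue boxes on the other strand. Nfkbia, Tnfaip3, Nfkb2 and Il6 hold matches, and Tnf, Tnfrsf1a, Tnfrsf1b and Tnfaip2 hold none.

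Counts assigned to genes ran between 2757773 and 13685674 per library, and the shallowest library, THC replicate 1, also had the largest share of reads without a unique alignment, 43.0%. Titles carry library numbers 44 to 48 for the first library of each population and 80 to 84 for the second. Lists of marker genes matched the labels of the sorts. Summed luminal markers were 11998 to 13336 CPM (counts scaled to library size) in LC and 1276 to 1631 CPM in BC, and summed basal markers were 105 to 197 CPM in LC and 10160 to 14414 CPM in BC. TLC held 5062 to 5764 CPM of luminal and 860 to 1353 CPM of basal markers, and THC held 4164 to 5009 CPM and 4478 to 5398 CPM of the same lists. TBC held 863 to 1276 CPM of luminal and 11849 to 16027 CPM of basal markers. THC stood apart in markers of other cell types. Endothelial markers summed to 953 CPM in both THC libraries, 163 to 199 CPM in TLC, 298 to 322 CPM in TBC, 198 to 457 CPM in LC and 190 to 651 CPM in BC. Immune cell markers, which matter here because immune cells are a common source of TNF, summed to 248 and 101 CPM in THC, 47.2 and 50 CPM in TLC, 83.4 and 43.8 CPM in TBC, 43.0 and 35.5 CPM in LC and 68.8 and 30.8 CPM in BC. Between 2 and 4 of the 22 immune markers were at 0 in each library.

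**Figure D2:**
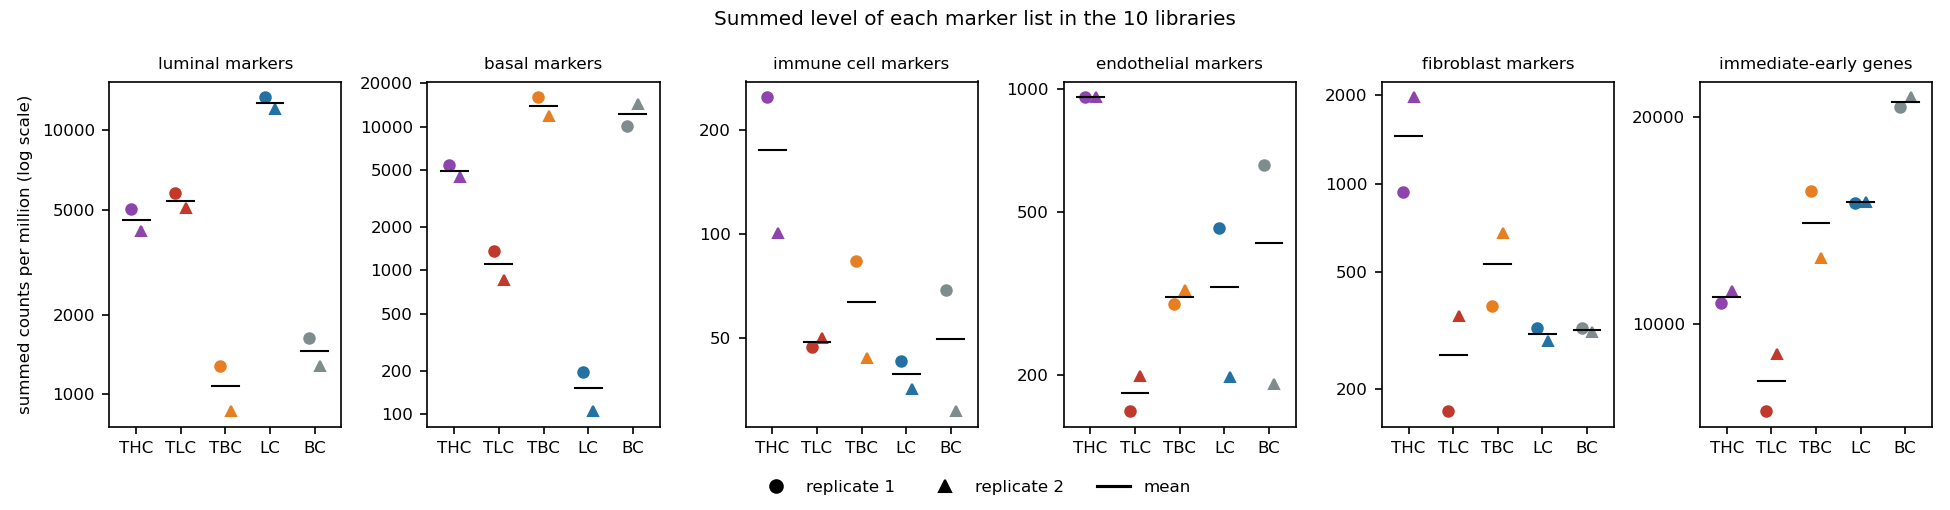
Summed CPM (log axis) of 6 marker lists in each of the 10 libraries, by population, with circles for replicate 1, triangles for replicate 2 and bars for the mean. THC is highest for immune cell, endothelial and fibroblast markers, and TLC is lower than LC for luminal markers and immediate-early genes.

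Tnf lies on the minus strand of chromosome 17 (chr17:35199381-35202007), overlaps no other annotated gene and drew between 45 and 777 counts per library. Its level was 22.9 and 26.1 CPM in THC, 28.4 and 29.4 CPM in TLC, 7.10 and 3.74 CPM in TBC, 84.2 and 36.5 CPM in LC and 11.8 and 7.82 CPM in BC. The libraries of each population were separate from those of the population next to it in this order of level: LC, TLC, THC, BC and TBC. None of these neighbouring steps passed the test, with adjusted p between 0.074 and 0.93 (edgeR's quasi-likelihood F-test, Benjamini-Hochberg adjusted over all 19757 genes, called under 0.05). Lta and Ltb, the lymphotoxin genes on either side of Tnf, are named here after their values were seen. Lta drew 0 to 7 counts per library over all 10 libraries, and Ltb drew 12 and 24 counts in LC against 2 and 1 counts in BC.

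Between the control populations, 7 of the 10 genes were higher in LC than in BC and none was lower, where 24.0% of all genes tested were called in this comparison and 11.5% were called as higher. The 7 genes include the ligand Tnf, the inducible receptor Tnfrsf1b, both feedback inhibitors and the subunit genes of the alternative pathway, Nfkb2 and Relb. The median log2 fold change was 0.92 over the 10 genes and -0.04 over all genes. Within each set of library numbers, 44 to 48 and 80 to 84, all 7 differed in the same direction.

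For the ligand, the log2 fold change of LC over BC was 2.64 ± 0.42 (SE, 2 libraries in each population), a 6.25-fold difference with an approximate 95% interval of 1.71 to 3.57 on the log2 scale and adjusted p = 9.2e-04. Both LC libraries were above both BC libraries, and the LC libraries themselves differed 2.30-fold. Without LC replicate 1 the log2 fold change was 1.92. At the receptors the pattern was split. Tnfrsf1b on chromosome 4 (chr4:145213463-145246870) had 41.4 and 23.6 CPM in LC against 9.80 and 2.81 CPM in BC, a log2 fold change of 2.44 ± 0.50 (SE) with adjusted p = 0.0045. Its log2 fold change was 3.53 without BC replicate 1 and 1.73 without BC replicate 2. Tnfrsf1a on chromosome 6 (chr6:125349362-125362484) had 106 and 77.2 CPM in LC against 127 and 133 CPM in BC. The LC libraries were below the BC libraries, but the log2 fold change of -0.51 ± 0.21 (SE) did not pass the test (adjusted p = 0.10).

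The inhibitors were higher in LC by smaller factors than the ligand. Nfkbia (chr12:55489410-55492647), which encodes the inhibitor that holds NF-kappaB in the cytoplasm, had 846 and 758 CPM in LC against 418 and 432 CPM in BC, a log2 fold change of 0.92 ± 0.25 (SE, adjusted p = 0.020). Leaving out any 1 of these 4 libraries took the adjusted p of Nfkbia to between 0.056 and 0.091. Tnfaip3 (chr10:19000910-19015657), which encodes a ubiquitin-editing enzyme that ends TNF receptor signalling, had 346 and 272 CPM in LC against 100 and 174 CPM in BC. Its log2 fold change was 1.17 ± 0.28 (SE, adjusted p = 0.010), and it was not called without BC replicate 1 (0.83, adjusted p = 0.079) or without LC replicate 1 (0.98, adjusted p = 0.061).

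Among the subunit genes, Relb (chr7:19606217-19629438), the partner of the processed Nfkb2 product, had 79.5 and 81.3 CPM in LC against 40 and 44.7 CPM in BC, a log2 fold change of 0.92 ± 0.21 (SE, adjusted p = 0.0069). Nfkb2 (chr19:46304320-46312385), which encodes that precursor, had 196 and 160 CPM in LC against 107 and 119 CPM in BC, a log2 fold change of 0.65 ± 0.20 (SE, adjusted p = 0.031). Both Relb and Nfkb2 were higher in each LC library than in each BC library. The Nfkb2 call was lost without a low-count filter, in a fit of LC and BC alone and without any 1 of BC replicate 1, BC replicate 2, LC replicate 1, TBC replicate 2 and THC replicate 2. Nfkb1 (chr3:135584655-135691547), the precursor of the subunit of the canonical dimer, had 372 and 288 CPM in LC against 238 and 229 CPM in BC and was not called, at a log2 fold change of 0.50 ± 0.21 (SE, adjusted p = 0.12).

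Of the other inducible genes of the set, Tnfaip2 passed the test and Il6 did not. Tnfaip2 (chr12:111442469-111455018), named for its induction by TNF in endothelial cells, had 112 and 70.1 CPM in LC against 19.8 and 12.9 CPM in BC. That is a log2 fold change of 2.5 ± 0.32 (SE, adjusted p = 1.8e-04), the smallest adjusted p of the 10 genes in this comparison. Il6 (chr5:30013114-30019981), a cytokine and classical target of NF-kappaB, had 47.9 and 5.46 CPM in LC against 123 and 20.5 CPM in BC, with a log2 fold change of -1.43 ± 1.06 (SE, adjusted p = 0.40). Libraries of all neighbouring populations overlapped in the order of Il6. It was higher in the library numbered 44 to 48 than in the one numbered 80 to 84 in 5 of 5 populations, and its level was 132 and 75.6 CPM in THC, 20.3 and 14.1 CPM in TLC and 37.6 and 26.4 CPM in TBC. Summed markers of pericytes were 245 and 164 CPM in THC, 17.9 and 23.6 CPM in TLC and 91.4 and 80.6 CPM in TBC. They were 60.8 and 10.4 CPM in LC and 156 and 69.7 CPM in BC. The part of such cells in the level of Il6 was not tested.

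For LC against BC, the count of 7 was 4 without BC replicate 1 and 4 without LC replicate 1, and the calls of Tnf, Tnfrsf1b, Tnfaip2 and Relb stood in all 17 alternatives. Immune cell markers overlapped between LC (43.0 and 35.5 CPM) and BC (68.8 and 30.8 CPM), and their defining gene Ptprc was at 2.60 and 0.79 CPM in LC and 5.49 and 0.94 CPM in BC. Summed immediate-early genes, which respond to cell dissociation, were lower in LC, 14985 to 15050 CPM, than in BC, 20706 to 21365 CPM, and their part in these differences was not tested. Several of the 10 genes overlap another annotated gene: Tnfaip2 overlaps Gm40578, Nfkb1 overlaps Gm43430, and Nfkb2 overlaps AC114539.1 and Psd. Overlap was taken from whole gene spans and not from exons. Gm40578, AC114539.1 and Psd are antisense partners, and Gm43430 lies on the same strand as Nfkb1. No source used here gives the strand setting of the counting. Whether reads shared with a partner were counted or were set aside as ambiguous between genes is therefore not known.

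**Figure D3:**
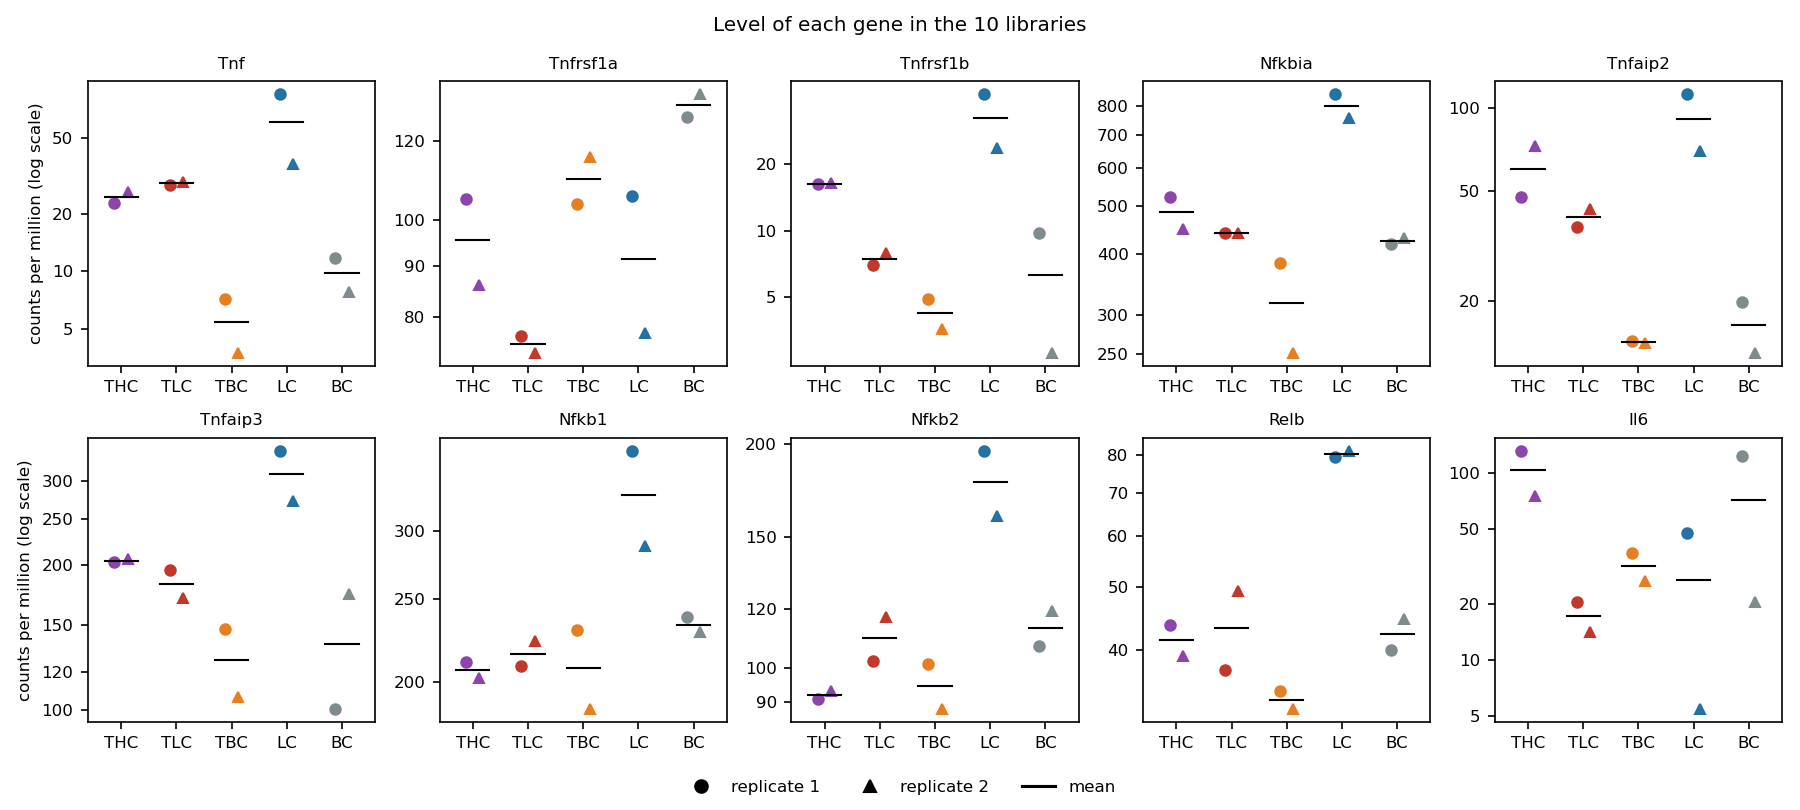
CPM (log axis) of each of the 10 genes in every library, by population, with circles for replicate 1, triangles for replicate 2 and bars for the mean. The LC libraries are the highest of all for Tnf, Tnfrsf1b, Nfkbia, Tnfaip3, Nfkb1, Nfkb2 and Relb, and Il6 shows the widest spread within populations.

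In Tomato luminal cells after luminal ablation, 3 of the 10 genes were lower than in control luminal cells and none was higher, where 8.22% of all genes were called and 3.77% were called as lower. All 10 log2 fold changes of TLC over LC were negative, with a median of -0.81 against 0.00 over all genes. Within the sets of library numbers, 9 of the 10 genes were lower in TLC in both sets, and Il6 changed sign between sets. Tnfrsf1b had 7.02 and 7.92 CPM in TLC against 41.4 and 23.6 CPM in LC, a log2 fold change of -2.11 ± 0.49 (SE, adjusted p = 0.022), which is 0.23 times the LC level. Relb had 37.2 and 49.3 CPM in TLC against 79.5 and 81.3 CPM in LC, with a log2 fold change of -0.89 ± 0.21 (SE, adjusted p = 0.022). Tnfaip2 had 37.0 and 43.2 CPM in TLC against 112 and 70.1 CPM in LC, with a log2 fold change of -1.18 ± 0.30 (SE, adjusted p = 0.032). TLC and LC libraries did not overlap for any of the 3. Comparisons that name the same population share its libraries, so this one and LC against BC both rest on the same LC libraries.

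Tnf itself was not called in this comparison. It had 28.4 and 29.4 CPM in TLC against 84.2 and 36.5 CPM in LC, a log2 fold change of -1.06 ± 0.39 (SE, adjusted p = 0.13), with an interval of -1.92 to -0.20. The TLC libraries lay close together and the LC libraries far apart. Nfkb2 had 102 and 117 CPM in TLC against 196 and 160 CPM in LC and missed the threshold narrowly, at a log2 fold change of -0.70 ± 0.20 (SE, adjusted p = 0.051). Nfkbia had 441 and 442 CPM in TLC against 846 and 758 CPM in LC (log2 fold change -0.86 ± 0.25 SE, adjusted p = 0.056). The TLC levels of Nfkbia and Nfkb2 lay near those of BC, which were 418 and 432 CPM for Nfkbia and 107 and 119 CPM for Nfkb2. Tnfaip3 had 196 and 171 CPM in TLC against 346 and 272 CPM in LC, and Nfkb1 had 208 and 223 CPM in TLC against 372 and 288 CPM in LC, with adjusted p of 0.12 and 0.11. Tnfrsf1a, at 76.7 and 73.7 CPM in TLC against 106 and 77.2 CPM in LC, had adjusted p = 0.49.

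The count of 3 in TLC against LC depended on single libraries and on the test. It was 0 without LC replicate 1, 0 without TLC replicate 1 and 1 without TLC replicate 2, and it was 5 with DESeq2, with limma-voom and with library number set as a term, where Nfkbia and Nfkb2 were added. Relb also missed the threshold without LC replicate 2 and in a fit of TLC and LC alone, and Tnfaip2 without TBC replicate 2. Luminal markers were lower in TLC (5062 to 5764 CPM) than in LC (11998 to 13336 CPM), basal markers were higher in TLC (860 to 1353 CPM) than in LC (105 to 197 CPM), and immediate-early genes were lower in TLC (7469 to 9040 CPM) than in LC (14985 to 15050 CPM). The part of these in the differences was not tested. Immune cell markers were at 47.2 and 50 CPM in TLC against 43.0 and 35.5 CPM in LC.

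In Tomato basal cells none of the 10 genes was called against BC, and this comparison called 0% of all genes with edgeR's quasi-likelihood F-test, with 1725 genes at an unadjusted p under 0.05 and none of the 10 among them. DESeq2 called 207 genes and limma-voom 0, again without any of the 10. Without TBC replicate 1, edgeR called 144 genes and none of the 10. All 10 log2 fold changes of TBC over BC were negative, and their median was -0.30 against -0.03 over all genes. The lowest was that of Il6, -1.16 ± 1.06 (SE), followed by Tnf at -0.87 ± 0.44 (SE, adjusted p = 0.60) with an interval of -1.83 to 0.09. Tnf had 7.10 and 3.74 CPM in TBC against 11.8 and 7.82 CPM in BC, and these libraries did not overlap. Tnfrsf1a, the receptor with the highest level in basal cells, had 104 and 116 CPM in TBC against 127 and 133 CPM in BC (adjusted p = 0.77). Nfkbia had 383 and 252 CPM in TBC against 418 and 432 CPM in BC (adjusted p = 0.65), and Relb had 34.6 and 32.4 CPM in TBC against 40 and 44.7 CPM in BC (adjusted p = 0.66). Within the sets of library numbers, 6 of the 10 genes were lower in TBC in both sets and the other 4 changed sign between sets.

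Whether the difference of a Tomato population from its control differed between luminal and basal cells was tested as the difference of TLC over LC and TBC over BC. It is called the difference between lineages below. It mixes ablation and marking, and the labels do not say from which cells TLC and TBC descend. None of the 10 genes passed, where 0.911% of all genes were called. The largest estimate was that of Tnfrsf1b, -1.60 ± 0.71 (SE, adjusted p = 0.45), followed by Tnfaip2, -0.99 ± 0.43 (SE, adjusted p = 0.43). Before adjustment these were the only 2 of the 10 genes under 0.05, where 2101 of all 19757 genes were. For Tnf the difference was -0.19 ± 0.59 (SE) with an interval of -1.48 to 1.11, which holds differences of over 2-fold in either direction. DESeq2 and limma-voom called none of the 10 either.

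**Figure D4:**
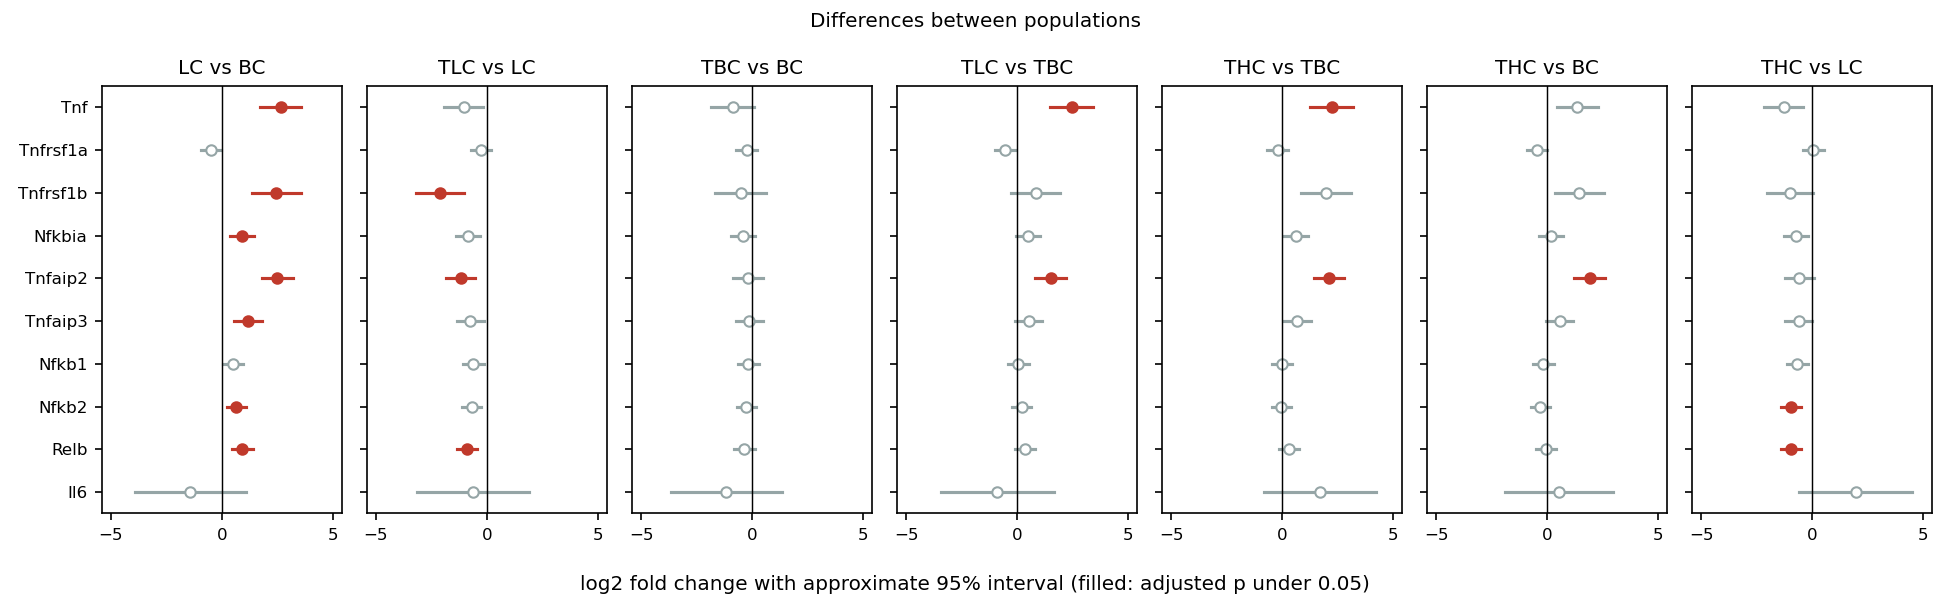
Log2 fold changes (x axis, points) with approximate 95% intervals (lines) of the 10 genes in 7 comparisons, each as the population named first over the second. Red filled points have an adjusted p under 0.05. LC over BC has 7 such genes, TLC over LC has 3, all below 0, and TBC over BC has none.

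Between the Tomato populations the ligand kept a higher level on the luminal side. Tnf had 28.4 and 29.4 CPM in TLC against 7.10 and 3.74 CPM in TBC, a log2 fold change of 2.46 ± 0.43 (SE, adjusted p = 0.0031) that was called in all 17 alternatives. Tnfaip2 had 37.0 and 43.2 CPM in TLC against 14.2 and 14.1 CPM in TBC, with a log2 fold change of 1.51 ± 0.31 (SE, adjusted p = 0.0070), and it was not called without TBC replicate 2 (adjusted p = 0.066) or without TLC replicate 2 (adjusted p = 0.054). These were the 2 genes called, both higher, where 13.6% of all genes were called and 5.59% were called as higher. The count was 1 without either of those libraries. Tnfrsf1b had 7.02 and 7.92 CPM in TLC against 4.89 and 3.59 CPM in TBC and was not called (log2 fold change 0.84 ± 0.51 SE, adjusted p = 0.34). Nfkbia, at 441 and 442 CPM in TLC against 383 and 252 CPM in TBC, and Tnfaip3, at 196 and 171 CPM in TLC against 147 and 106 CPM in TBC, had adjusted p of 0.26 each.

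Tomato hybrid cells, which carry markers of both layers, had Tnfaip2 called as higher against both basal populations and Tnf against TBC only. Against TBC, 2 of the 10 genes were called, both higher, where 3.72% of all genes were called and 2.57% were called as higher. Tnf had 22.9 and 26.1 CPM in THC against 7.10 and 3.74 CPM in TBC, a log2 fold change of 2.23 ± 0.43 (SE, adjusted p = 0.018), and Tnfaip2 had 47.6 and 73.0 CPM in THC against 14.2 and 14.1 CPM in TBC, a log2 fold change of 2.11 ± 0.31 (SE, adjusted p = 0.0052). Tnfrsf1b, at 16.3 and 16.4 CPM in THC against 4.89 and 3.59 CPM in TBC, was not called (log2 fold change 1.96 ± 0.51 SE, adjusted p = 0.062). THC and TBC libraries did not overlap for these 3 genes. The count was 0 without TBC replicate 2, 0 without THC replicate 2, 1 without TBC replicate 1, where Tnfaip2 was lost, and 1 without THC replicate 1, where Tnf was lost, and 4 in a fit of THC and TBC alone, where Tnfrsf1b and Il6 were added. Tnfrsf1b was also called with library number set as a term, with DESeq2, without a low-count filter and without any 1 of BC replicate 1, BC replicate 2 and LC replicate 1.

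Against BC, 1 of the 10 genes was called in THC, Tnfaip2, where 7.71% of all genes were called and 5.0% were called as higher. It had 47.6 and 73.0 CPM in THC against 19.8 and 12.9 CPM in BC, a log2 fold change of 1.91 ± 0.31 (SE, adjusted p = 0.0061). Tnf, at 22.9 and 26.1 CPM in THC against 11.8 and 7.82 CPM in BC, had a log2 fold change of 1.35 ± 0.42 (SE) and adjusted p = 0.074. It was called with DESeq2, with library number set as a term and without a low-count filter. The Tnfaip2 call was lost without BC replicate 2 (adjusted p = 0.065) or THC replicate 2 (adjusted p = 0.060), where the count was 0. The count was 2 without BC replicate 1, without LC replicate 1 or without LC replicate 2.

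Against LC, 2 of the 10 genes were called in THC, both lower, where 12.9% of all genes were called and 4.0% were called as lower. Nfkb2 had 90.6 and 92.9 CPM in THC against 196 and 160 CPM in LC, a log2 fold change of -0.95 ± 0.20 (SE, adjusted p = 0.0094). Relb had 43.8 and 39.1 CPM in THC against 79.5 and 81.3 CPM in LC, a log2 fold change of -0.96 ± 0.21 (SE, adjusted p = 0.012). These are the subunit genes of the alternative pathway, and each lay at a lower level in both THC libraries than in both LC libraries. Tnf had a log2 fold change of -1.29 ± 0.40 (SE, adjusted p = 0.058) and Nfkbia, with 524 and 449 CPM in THC, one of -0.72 ± 0.25 (SE, adjusted p = 0.083). The count was 0 without THC replicate 1, 0 without THC replicate 2 and 1 without LC replicate 1, and 5 with DESeq2 and with library number set as a term, where Tnf, Nfkbia and Nfkb1 were added. Without LC replicate 2, Relb had an adjusted p of 0.062.

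THC and TLC did not differ past the threshold in any of the 10 genes with edgeR, where 1.61% of all genes were called, and DESeq2 and limma-voom called none either. At an unadjusted p under 0.05, which 2394 of all 19757 genes had, only Tnfrsf1b of the 10 passed. It had 16.3 and 16.4 CPM in THC against 7.02 and 7.92 CPM in TLC (log2 fold change 1.12 ± 0.49 SE, adjusted p = 0.38). The Tnf difference was -0.23 ± 0.40 (SE), with an interval of -1.11 to 0.65. Il6 had the widest interval, -0.04 to 5.22, around a log2 fold change of 2.59, and it was called in a fit of THC and TLC alone.

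Summed immune cell, endothelial and fibroblast markers were highest in THC. Some single genes of these lists were not. The fibroblast gene Pdgfra had 24.8 and 31.0 CPM in THC against 69.8 and 51.4 CPM in BC. Dcn, of the same list, had 57.7 and 152 CPM in THC against 269 and 274 CPM in LC. The immune gene Cd68 had 14.3 and 14.2 CPM in THC against 28.4 and 15.5 CPM in BC. Ptprc was highest in THC, at 22.1 and 12.1 CPM against 5.37 and 2.13 CPM in TBC. The macrophage gene Lyz2 had 106 and 28.1 CPM in THC against 29.2 and 9.97 CPM in TBC. Tnf was 22.9 CPM in the library with 248 CPM of immune markers and 26.1 CPM in the one with 101 CPM. Tnfaip2 is also made by endothelial cells, whose markers were 953 CPM in both THC libraries. The part of these cell types in the THC differences was not tested. In sorted bulk samples, fewer cells of a type and less RNA per cell cannot be told apart.

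Across all 5 populations, a test for any difference called 7 of the 10 genes, where 26.7% of all genes were called, namely Tnf, Tnfrsf1b, Nfkbia, Tnfaip2, Tnfaip3, Nfkb2 and Relb. The count was 4 without LC replicate 1 and 9 with library number set as a term, where Tnfrsf1a and Nfkb1 were added. Levels were also divided by exon length, with all annotated exons of a gene merged, for a rough comparison between genes. The merged lengths ran from 1610 bases for Nfkbia to 12061 bases for Nfkb1, and the order rests on them. Nfkbia had the highest mean over the 10 libraries, 307 CPM per kb, followed by Tnfrsf1a with 38.7 and Tnfaip3 with 26.6 CPM per kb. Tnfrsf1b had the lowest, 3.5 CPM per kb, below Tnfaip2 with 8.92, Relb with 12.4 and Tnf with 15.7 CPM per kb. This order was not the same in every population: Il6, at 42.8 CPM per kb in THC, lay above Tnfrsf1a at 36.9, and in LC Tnfaip3 at 42.8, Nfkb2 at 38.8 and Tnf at 36.8 CPM per kb lay above Tnfrsf1a at 35.3.

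By population mean, LC ranked first for 8 of the 10 genes, all but Tnfrsf1a and Il6. The step from LC to the next population passed the test for Relb (80.4 ± 1.33 CPM in LC and 43.3 ± 8.58 CPM in TLC, SD, n = 2 each; edgeR adjusted p = 0.022) and for Nfkb2, where BC came next. Relb libraries of the 4 other populations lay between 32.4 and 49.3 CPM, and those of TLC, BC and THC overlapped. Tnfrsf1a ran the other way, with 75.2 ± 2.09 CPM in TLC as its lowest mean and 130.1 ± 4.73 CPM in BC as its highest (SD, n = 2 each), and TBC, THC and LC libraries overlapped between them. This pair was compared after the values were seen and differs in layer, ablation and marking. The log2 fold change of Tnfrsf1a in TLC over BC was -0.79 ± 0.21 (SE, adjusted p = 0.023). That adjusted p takes no account of the choice of the lowest and highest means. The edgeR test for any difference among populations did not call Tnfrsf1a (adjusted p = 0.086). Tnf (1.58 ± 0.42 SE, adjusted p = 0.023) and Tnfaip2 (1.31 ± 0.31 SE, adjusted p = 0.013) were higher in TLC than in BC, so that 3 of the 10 genes were called, where 17.8% of all genes were called, 7.99% as higher and 9.76% as lower. The count was 0 without BC replicate 2, 0 without TLC replicate 2 and 1 without TLC replicate 1, and Tnfrsf1a was not called without BC replicate 1 either. The lowest mean was found in TBC for Tnf, Tnfrsf1b, Nfkbia, Tnfaip2, Tnfaip3 and Relb, and in THC for Nfkb1 and Nfkb2.

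Over the 10 libraries, Pearson's r of log2 CPM with Tnf was 0.94 for Tnfaip2, 0.87 for Nfkbia, 0.87 for Tnfrsf1b, 0.85 for Tnfaip3, 0.75 for Relb, 0.66 for Nfkb1, 0.66 for Nfkb2, -0.08 for Il6 and -0.57 for Tnfrsf1a. These libraries fall into 5 populations, so the values describe a pattern set mostly by population. The 5 genes tested with the highest r, the 10 genes left out, were Tec (0.99), Vps37b (0.99), Gm37939 (0.98), Dock8 (0.98) and the luminal keratin gene Krt18 (0.98). Tec, which encodes a tyrosine kinase of immune receptor signalling, had 14.3 and 16.5 CPM in THC, 20.5 and 18.3 CPM in TLC, 5.53 and 2.93 CPM in TBC, 42.3 and 30.7 CPM in LC and 8.23 and 4.59 CPM in BC. Krt18 had 1044 and 691 CPM in THC, 1302 and 920 CPM in TLC, 249 and 140 CPM in TBC, 2581 and 1773 CPM in LC and 383 and 246 CPM in BC. Both follow the order LC, TLC, THC, BC and TBC that Tnf has, but they were chosen for their likeness to Tnf in these same libraries.

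Other genes of the pathway were read from a list of 68 ligands, receptors, adaptors, kinases and regulators, of which 62 were tested. Between LC and BC, 14 were higher and 8 lower, where 24.0% of all genes were called and 11.5% were called as higher, with a median log2 fold change of 0.18 against -0.04 over all genes. By role, 4 of 9 other feedback regulators were higher and none lower, 4 of 13 kinases, subunits and inhibitors of NF-kappaB were higher and 1 lower, and 1 of 11 other receptors was higher and 5 lower. Those with the smallest adjusted p were Traf5, Ngfr, Tnip3 and Tnfrsf11b. Tnip3, which encodes a partner of the Tnfaip3 product, had 13.3 and 24.6 CPM in LC against 1.37 and 0.68 CPM in BC (log2 fold change 4.32 ± 0.59 SE, adjusted p = 3.1e-04). The adaptor gene Traf5 had 2.06 and 1.87 CPM in LC against 20.6 and 35.4 CPM in BC (log2 fold change -3.84 ± 0.38 SE, adjusted p = 3.6e-05). Tnfrsf11b, which encodes the decoy receptor osteoprotegerin, had 0.87 and 1.08 CPM in LC against 25.9 and 45.1 CPM in BC (adjusted p = 0.0014). Ngfr, the neurotrophin receptor gene used as a basal marker, had 5 and 2 counts in LC against 36 and 68 counts in BC (adjusted p = 1.7e-04). The list's count was 14 without BC replicate 1 and 10 without LC replicate 1.

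In TLC against LC, 2 of the 62 were higher and 5 lower, where 8.22% of all genes were called, with a median of -0.23 against 0.00 over all genes. The ligand gene Tnfsf10, which encodes the death ligand TRAIL, had 88.4 and 61.6 CPM in TLC against 27.1 and 28.8 CPM in LC (log2 fold change 1.42 ± 0.28 SE, adjusted p = 0.011). Cyld, a deubiquitinase gene of the feedback group, had 100.2 and 97.6 CPM in TLC against 201 and 177 CPM in LC (log2 fold change -0.93 ± 0.19 SE, adjusted p = 0.012). The regulator gene Zc3h12a, whose product cleaves cytokine mRNAs, had 82.3 and 69.1 CPM in TLC against 198 and 136 CPM in LC (adjusted p = 0.017). Birc3, a ubiquitin ligase gene induced by NF-kappaB, had 101 and 61.1 CPM in TLC against 212 and 174 CPM in LC (adjusted p = 0.029). The list's count of 7 was 1 without LC replicate 1, 1 without TLC replicate 1, 2 without LC replicate 2, 3 without TLC replicate 2 and 4 without THC replicate 1. In TBC against BC edgeR called none of the 62, with 8 genes at an unadjusted p under 0.05, where 1725 of all 19757 genes were. DESeq2 called 2 of the 62 there and limma-voom 0, against 207 and 0 of all genes. In the test of the difference between lineages edgeR called none of the 62, with 10 at an unadjusted p under 0.05, where 2101 of all genes were.

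In TLC against TBC, 8 of the 62 were higher and 5 lower, where 13.6% of all genes were called. Bcl3, which encodes a nuclear cofactor of NF-kappaB, had 50.5 and 53.5 CPM in TLC against 18.2 and 13 CPM in TBC (log2 fold change 1.75 ± 0.26 SE, adjusted p = 0.0010), and Tnip3 had 16.3 and 10.8 CPM in TLC against 2.53 and 0.95 CPM in TBC (adjusted p = 0.0032). Ngfr and Traf5 were lower in TLC, with log2 fold changes of -4.45 ± 0.48 and -2.96 ± 0.37 (SE). In THC against TBC, 3 were higher and 1 lower, where 3.72% of all genes were called. Bcl3 (44.9 and 31.8 CPM in THC), Tnip3 (13.6 and 8.57 CPM in THC) and the caspase gene Casp8 (39.9 and 38.6 CPM in THC) were higher, and Traf5 (7.36 and 11.7 CPM in THC against 25.1 and 30.7 CPM in TBC) was lower. The Casp8 call, at adjusted p = 0.049, stood in 4 of 17 alternatives, against 12 to 14 for Bcl3, Tnip3 and Traf5. Leaving out single libraries lowered these counts: 13 became 5 without TBC replicate 2, 8 without TLC replicate 1 and 8 without TLC replicate 2, and 4 became 0 without TBC replicate 2, 1 without TBC replicate 1, 1 without THC replicate 1, 1 without THC replicate 2 and 2 without TLC replicate 2.

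For THC against the controls, 4 were higher and 3 lower than in BC, and 4 were higher and 5 lower than in LC, where 7.71% and 12.9% of all genes were called against BC and against LC. Tnip3, Casp8 and Traf5 were among those called against BC, with Tnip3 and Casp8 higher and Traf5 lower. Tnfsf11, the gene of the osteoclast ligand RANKL and a paracrine signal of hormone-sensing luminal cells, had 2 and 168 counts in THC against 0 counts in both BC libraries, and was called (adjusted p = 0.028) with nearly all its counts in THC replicate 2. Against LC, Ngfr, Traf5 and Tnfrsf11b were higher in THC and Zc3h12a was lower. Ngfr was the 1 gene called between THC and TLC, where 1.61% of all genes were called. It had 9.30 and 12.3 CPM in THC against 1.05 and 1.09 CPM in TLC (adjusted p = 0.0073). The count of 7 against BC was 2 without BC replicate 1, 0 without BC replicate 2, 2 without THC replicate 1 and 2 without THC replicate 2. The count of 9 against LC was 5 without any 1 library of THC or LC, and Ngfr was not called between THC and TLC without TLC replicate 1, TLC replicate 2 or THC replicate 2.

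Known targets of NF-kappaB other than the 10 genes did not share their direction between LC and BC. Of 34 target genes 31 were tested, and 3 were higher and 8 lower in LC, where 24.0% of all genes were called and 11.5% were called as higher, with a median log2 fold change of -0.25 against -0.04 over all genes. Lif, a cytokine of the Il6 family, had 116 and 132 CPM in LC against 15.3 and 21.8 CPM in BC (log2 fold change 2.73 ± 0.32 SE, adjusted p = 1.2e-04). Csf1, the macrophage growth factor gene, had 26.0 and 27.1 CPM in LC against 107 and 127 CPM in BC (log2 fold change -2.14 ± 0.21 SE, adjusted p = 3.4e-05). The chemokine gene Ccl2 had 2.60 and 0.14 CPM in LC against 35.5 and 27.8 CPM in BC (adjusted p = 0.0028), and the adhesion gene Vcam1 had 14.3 and 4.31 CPM in LC against 82.5 and 103 CPM in BC (adjusted p = 0.0030). The count of 11 was 7 without BC replicate 1 and 7 without LC replicate 2.

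**Figure D5:**
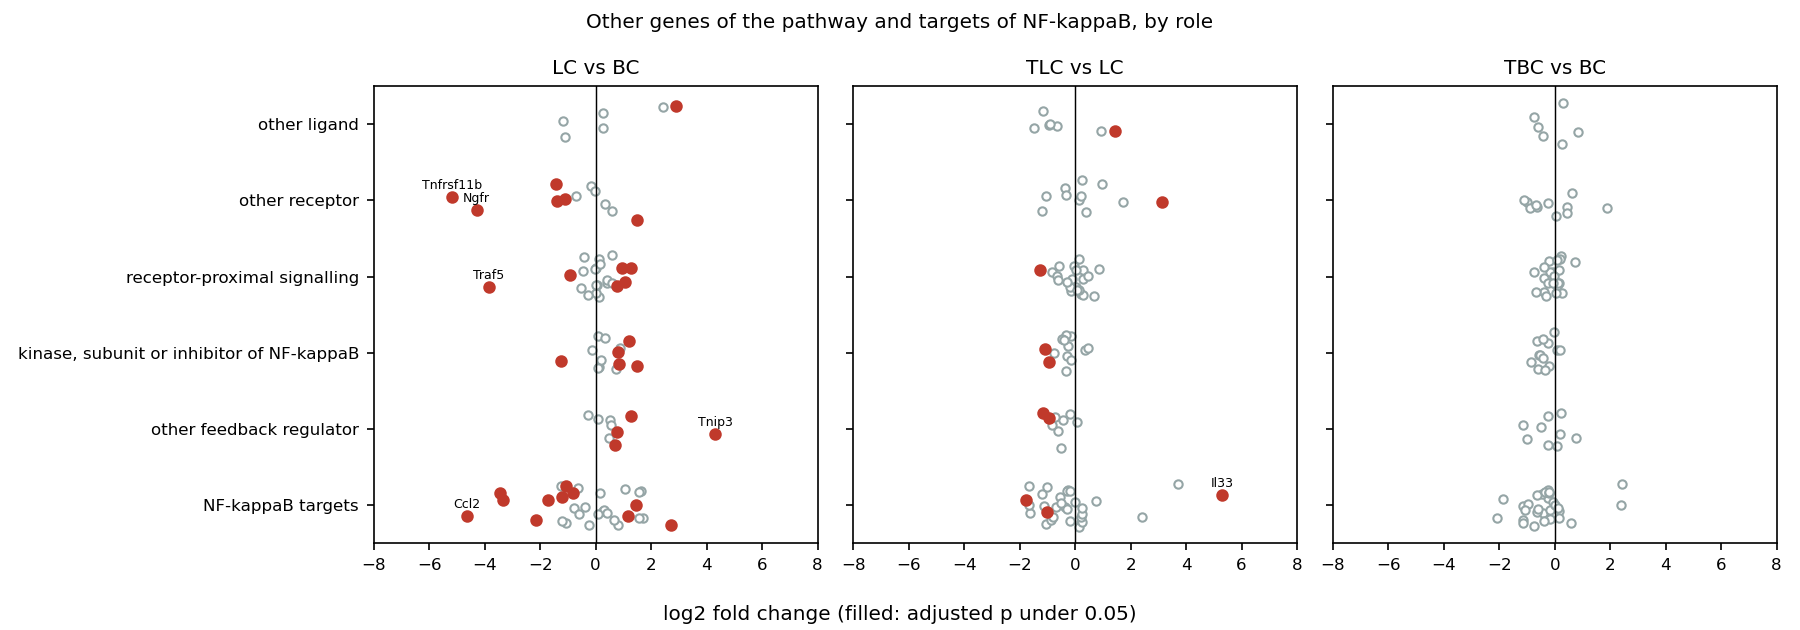
Log2 fold changes (x axis) of the other pathway genes, by role, and of the NF-kappaB targets in LC over BC, TLC over LC and TBC over BC, 1 point per gene. Red filled points have an adjusted p under 0.05, names are given past a size of 3.5, and Tnfsf11 is left out where BC had no counts. LC over BC has 14 pathway genes higher and 8 lower, and TBC over BC has none.

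In TLC against LC, 1 target was higher and 2 lower, where 8.22% of all genes were called. The alarmin gene Il33 had 327 and 246 CPM in TLC against 1.84 and 12.3 CPM in LC (log2 fold change 5.29 ± 1.09 SE, adjusted p = 0.028), Lcn2 had 197 and 161 CPM in TLC against 894 and 324 CPM in LC (adjusted p = 0.017), and the survival gene Bcl2l1 had 31.1 and 37.3 CPM in TLC against 56.6 and 83.3 CPM in LC (adjusted p = 0.032). None of these 3 was called without TLC replicate 1, and 1 was without TLC replicate 2. In TLC against TBC, 2 were higher and 3 lower (3 in all without TLC replicate 2), with Lif higher at 89.1 and 54.4 CPM in TLC against 12.3 and 7.11 CPM in TBC (adjusted p = 2.1e-04) and Csf1, Ccl2 and Vcam1 lower in TLC. Of all genes, 13.6% were called in TLC against TBC and 3.72% in THC against TBC. In THC against TBC, Lif was higher, at 46.9 and 40.8 CPM in THC against 12.3 and 7.11 CPM in TBC (adjusted p = 0.0054), and Csf1 was lower. Leaving out 1 library of THC or TBC left 1 of these 2 calls.

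Lif and Csf1 also held middle levels in THC against the controls. THC had 1 target higher than BC, Lif, named here after its values were seen, and 4 lower, Csf1, Gadd45b, Cebpd and Icam1. Against LC it had 4 higher, among them Vcam1, Csf1 and Ccl2, and 1 lower, Lif. Of all genes, 7.71% were called in THC against BC and 12.9% in THC against LC. The 5 calls against BC became 2 without BC replicate 1, 1 without BC replicate 2, 2 without THC replicate 1 and 1 without THC replicate 2, and the 5 against LC became 2 without THC replicate 1 or THC replicate 2. In TBC against BC edgeR called no target, with 3 at an unadjusted p under 0.05, where 1725 of all 19757 genes were. DESeq2 called 1 target there and limma-voom 0, against 207 and 0 of all genes. In THC against TLC edgeR called no target either, with 6 at an unadjusted p under 0.05, where 2394 of all genes were. DESeq2 called 3 targets there and limma-voom 1, against 782 and 318 of all genes.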

How the data were processed

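Total RNA of sorted mouse mammary gland cells was profiled in 10 libraries, 2 for each of 5 populations. Per the labels' protocols, cells were stained with antibodies, sorted by flow cytometry into lysis buffer, extracted with the RNeasy Micro kit, made into libraries with the Ovation Solo RNA-Seq system and sequenced on a NovaSeq instrument. The authors deposited a table of raw read counts per Ensembl gene for each library. STAR, HTSeq and the builds GRCm38 and mm10 are named in the submitters' processing notes. No source used here gives the tool versions, the annotation release or the strand setting of the counting. The HTSeq summary entries were kept out of library sizes and tests. They hold reads outside annotated features (12.6% to 30.8% of a library), reads ambiguous between genes (2.71% to 3.48%) and reads that did not align uniquely (14.6% to 43.0%).

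Counts were tested with the robust quasi-likelihood F-test of edgeR in a model of the 5 populations fitted to all 10 libraries, with 5 residual degrees of freedom and TMM factors, after filterByExpr by population (19757 genes). P-values were adjusted by Benjamini-Hochberg over these genes and called under 0.05. CPM use TMM-scaled library sizes, and 2 is the prior count behind log2 CPM values. The SE of a log2 fold change is its size divided by the square root of F and, like the 95% interval built from it, is approximate. The software was DESeq2 1.42.0, limma 3.58.1 and edgeR 4.0.16 under R 4.3.3, and the edgeR pipeline was tested on simulated data. Libraries of a population differed by far more than sampling noise (chi-square per degree of freedom 19.5 to 34.4), so none was counted as a repeat. Replicates follow the order of the sample records and were not treated as pairs. Alternatives were to leave out each library, to fit 2 populations alone, to add the library number set as a term, to require 5 CPM in 2 libraries or use no filter, and to use DESeq2, limma-voom or RLE factors.

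The 10 genes, the lists and the tests were chosen with earlier results of these data known. All 10 genes were named throughout, from the lists up to 4 called genes per list and comparison with the smallest adjusted p, and the 5 genes with the highest r with Tnf. Promoter windows and their coordinates are those of RefSeq on GRCm38.p6, and gene positions those of GENCODE M21 on GRCm38. Motifs were searched on both strands, overlapping matches included.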

Additional observations from a re-analysis of the deposited data

How the results depend on the processing

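No call of the 10 genes changed direction in any alternative run. The calls of Tnf, Tnfrsf1b, Tnfaip2 and Relb in LC against BC and of Tnf in TLC against TBC stood in all 17. The number of the 10 genes called in TLC against LC was 3, and 5 with DESeq2, 5 with limma-voom, 5 with library number set as a term, 6 without a low-count filter, and between 0 and 3 when a library was left out. Nothing changed in it by over 1.5 times under RLE factors, the stricter filter (4) or a fit of the 2 populations alone (2). In THC against BC the 1 gene became 2 with DESeq2, 2 with limma-voom, 3 with the set term and 3 without a filter, and 0 to 2 with a library left out. In THC against LC the 2 genes became 5 with DESeq2, 5 with the set term and 4 without a filter, and 0 to 3 with a library left out. In THC against TBC the 2 genes became 4 in a fit of the 2 populations alone, and 0 to 3 with a library left out. THC against TLC had 0, and 1 in a fit of the 2 populations alone. LC against BC had 7, and 4 to 7 with a library left out. TLC against TBC had 2, and 1 to 2 with a library left out. The test over all populations had 7, and 9 with the set term and 4 to 7 with a library left out. TLC against BC, added after the data were seen, had 3, and 0 to 3 with a library left out. TBC against BC and the difference between lineages had 0 in every alternative run. Over all genes, TBC against BC had 398 called without a filter, 207 with DESeq2 and 33 with the set term, against 0. Over all genes, THC against TLC had 318 called, and 1143 without a filter, 782 with DESeq2 and 683 with the set term. THC against TBC had 734, and 1839, 1385 and 1510 under the same settings and 1350 in a fit of the 2 populations alone. The difference between lineages had 180, and 725, 505 and 425. THC against BC had 1524, and 2707 without a filter and 2800 with the set term, and TLC against LC had 1625, and 2561 and 2527. With a library left out, these counts over all genes ran from 3141 to 4758 in LC against BC, 467 to 1669 in TLC against LC, 0 to 144 in TBC against BC, 247 to 1644 in THC against BC, 1141 to 2615 in THC against LC, 165 to 864 in THC against TBC, 0 to 540 in THC against TLC, 1491 to 2743 in TLC against TBC and 36 to 254 in the difference between lineages. The cause of these shifts was not tested, but a fit without 1 library has fewer residual degrees of freedom and takes the spread of the lone library from the other populations.

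The list counts were added to these alternatives after the data were seen. Of 46 calls of named list genes, 16 stood in every alternative that gave a value and none changed direction. Across the settings that keep all libraries, the pathway list ran from 16 to 30 calls in LC against BC (22 as reported), 6 to 11 in TLC against LC (7), 3 to 10 in THC against BC (7), 7 to 22 in THC against LC (9), 3 to 7 in THC against TBC (4) and 0 to 4 in TBC against BC (0). The targets ran from 11 to 17 in LC against BC (11), 2 to 7 in TLC against LC (3), 4 to 11 in THC against BC (5), 4 to 9 in THC against LC (5), 2 to 5 in THC against TBC (2) and 5 to 13 in TLC against TBC (5). Depth was lowest in THC replicate 1, with 2757773 counts on genes, where Tnf drew 59 counts. Each library number set holds 1 library of every population, so the fit with the set as a term blocks on the sets, and the labels do not say that a set shares animals or a batch.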
